A study of Homo sapiens with 16 samples.

Results

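Aminoacyl-tRNA synthetases attach each amino acid to its tRNA before the ribosome can use it. The members described here are the 36 genes of these enzymes listed by symbol in the counts, 20 for the cytosol and 16 for mitochondria (symbols ending in 2), out of 25221 genes. They were taken by gene symbol alone, under the older symbol or its newer form (AARS1 for AARS). A further 2 entries under the symbols MARS and QARS are microRNA genes by their Entrez identifiers, hold 0 counts and were left out. Of the 36 members, 35 passed the filter on low counts in every comparison. AARS2, the mitochondrial alanine enzyme, was listed at 0 counts in all 16 libraries. With counting error only, that allows a level of up to 0.0679 CPM in the deepest library and 0.861 CPM in the shallowest. AARS2 overlaps LOC124901322 by 6364 bases, and the counting program and annotation are not given, so its count is uncertain.

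As background, the cytosolic enzymes charge tRNAs for translation of nuclear genes, and nuclear genes for a largely separate set supply the mitochondrial ribosome. The members are split here by symbol alone. A gene that serves both compartments would thus be counted as cytosolic, where GARS and KARS are counted. Several cytosolic enzymes are held together in the multisynthetase complex on scaffold proteins (AIMP1, AIMP2 and EEF1E1), and of the members EPRS, IARS, LARS, MARS, QARS, RARS, KARS and DARS belong to it. When tRNAs stay uncharged, the kinase GCN2 (EIF2AK4) phosphorylates eIF2, the mRNA of the transcription factor ATF4 is translated more, and ATF4 raises genes of amino acid synthesis and uptake together with many cytosolic synthetase genes.

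RNA was sequenced from the human leukemia lines MOLM13 (acute myeloid) and K562 (chronic myelogenous, from a blast crisis) to assess the early effect of Ro 08-2750 (Ro), an inhibitor of RNA binding by MSI2, on transcripts. Each line had 4 libraries with 20 µM Ro for 4 h and 4 with DMSO alone, labelled as pairs 1 to 4, and DMSO was 0.1% of the medium in the treated cultures. No group carried an engineered allele, and what the 2 libraries of a pair shared was not named. The kit reads the 3′ ends of mRNAs, so counts do not grow with gene length and levels are given as CPM (the share of a library's counts, scaled by TMM) without division by length.

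Libraries held 8611944 to 39978791 counts in MOLM13 and 3143129 to 43571060 in K562, where DMSO libraries 2 and 4 were the shallowest of all 16. The summed level of the erythroid marker list (GATA1, KLF1, HBG1, HBG2, HBE1, HBZ and TAL1) was 1424 to 2725 CPM in K562 and 2.61 to 5.74 CPM in MOLM13, and HBE1 was at 0 in both lines. The myelomonocytic list (HOXA9, HOXA10, MEIS1, FLT3, SPI1, CSF1R, CD33 and LYZ) summed to 597 to 741 CPM in MOLM13 and to 147 to 297 CPM in K562, where HOXA9 was at 0 but CSF1R, CD33 and LYZ were not. HOXA10 was at 0 in both lines. The counting program and annotation are not given, so these values at 0 are uncertain. MOLM13 pair 4 stood apart from pairs 1 to 3 in the synthetase levels with and without Ro, and K562 DMSO library 4 stood apart from the other K562 libraries. The level medians, the medians of the Ro change and the comparison of the untreated lines are given with and without them. Some other values are given with all libraries only. CPM is a share of a library, so fewer cells of a type and less RNA per cell cannot be told apart.

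The promoter sequences of the members are shown first because the ATF4 arm of the pathway acts through a short DNA element. RefSeq promoter windows (250 bases before to 50 bases after the annotated start, GRCh38.p14, the same build as the hg38 named in the labels) were at hand for 30 of the 36 members, and those of DARS, LARS, VARS, YARS, AARS2 and VARS2 were not. The letters TGATGNAA, a core of the element bound by ATF4 with C/EBP partners, were searched on both strands. They stood in 6 of 16 cytosolic windows (37.5%) and 1 of 14 mitochondrial windows (7.14%), against 1003 of 27305 windows of all genes (3.67%) and 401 of 15842 windows of protein-coding genes (2.53%). All 6 cytosolic matches were TGATGCAA, which stood in 106 of the 15842 protein-coding windows (0.669%) and in 0 of the 14 mitochondrial ones. A match is a description of the letters in this window and not evidence of binding.

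The 6 cytosolic matches and the mitochondrial one are printed below on the strand of the gene, 30 bases each, with the match in capitals (TTGCATCA is TGATGCAA read on the other strand).
AARS, chr16:70289675-70289704 (minus strand): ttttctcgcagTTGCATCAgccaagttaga
CARS, chr11:3057407-3057436 (minus strand): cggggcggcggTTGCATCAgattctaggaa
IARS, chr9:92293692-92293721 (minus strand): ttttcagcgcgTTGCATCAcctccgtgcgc
MARS, chr12:57488053-57488082 (plus strand): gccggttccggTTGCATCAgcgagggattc
NARS, chr18:57621804-57621833 (minus strand): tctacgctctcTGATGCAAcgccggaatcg
TARS, chr5:33440956-33440985 (plus strand): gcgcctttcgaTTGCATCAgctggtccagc
YARS2, chr12:32756076-32756105 (minus strand): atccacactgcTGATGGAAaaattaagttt

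In CARS, IARS, MARS, NARS and TARS the match lay within 22 bases of the start on which the promoter window is built, and in AARS 179 bases and in YARS2 189 bases before it. For TARS that start lies inside the gene record, which begins further upstream. The annotated starts of HARS and HARS2, on opposite strands, were 85 bases apart, those of FARS2 and LYRM4 57 bases and those of KARS and TERF2IP 108 bases.

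The order of levels across genes rests on a counting program and annotation that are not given, so it is uncertain. Among cytosolic members, TARS (threonine) had the highest level and was first in 15 of 16 libraries. Its CPM in the DMSO libraries 1 to 4 was 602, 727, 763 and 1211 in MOLM13 and 629, 687, 701 and 233 in K562. EPRS, which charges both glutamate and proline, followed with a mean of 431 ± 191 CPM (SD, n = 8 DMSO libraries), and LARS (leucine) with 316 ± 39.8. The spreads of TARS (694 ± 267) and EPRS overlapped, as did those of EPRS and LARS. Without DMSO library 4 they did not overlap for TARS and EPRS in either line, at 697 ± 84.7 and 423 ± 35.6 in MOLM13 and 672 ± 38.5 and 414 ± 51.9 in K562 (SD, n = 3).

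HARS (histidine) was the lowest cytosolic member in all 16 libraries, at 12.1 ± 4.27 CPM (SD, n = 8). The next lowest over both lines were VARS (valine) at 90 ± 41.7 and FARSB, a subunit of the phenylalanine enzyme, at 93.4 ± 27.3. They were also next in MOLM13 (60.5 and 83.9 CPM), but in K562 MARS (85.5), QARS (89) and IARS (90.6) lay below them, within overlapping spreads. The median of the 20 cytosolic members was 165 CPM in untreated MOLM13, or 107 CPM without DMSO library 4, and 184 CPM in untreated K562, or 199 CPM without DMSO library 4.

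Mitochondrial members were lower. The median over the 16 was 22.1 CPM in untreated MOLM13 and 22.6 CPM in untreated K562 (17.1 and 22.8 without DMSO library 4). IARS2 (isoleucine) was the highest of them in all 16 libraries, at 284 ± 43.5 CPM (SD, n = 8), followed by FARS2 (phenylalanine) at 70.5 ± 31.6 and RARS2 (arginine) at 37.9 ± 7.6 over both lines. In MOLM13 CARS2 (43.6) and in K562 LARS2 (37.4) lay above RARS2 (39.4 and 36.5), within overlapping spreads. The lowest above AARS2 (0 CPM) were HARS2 at 2.85 ± 1.6 and PARS2 (proline) at 5.06 ± 2.68 over both lines. In MOLM13 PARS2 was the lower of them (2.58 against 3.25, with overlapping spreads), and in K562 the order was HARS2 (2.45), MARS2 (5.78) and PARS2 (7.55).

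For 12 amino acids a cytosolic and a mitochondrial member with the same stem could be set side by side. The cytosolic gene was higher in all 8 DMSO libraries for 11 of the 12. The largest ratio was that of TARS over TARS2, 36.7-fold in MOLM13 and 25.4-fold in K562 (geometric means of 4 libraries). The exception was isoleucine. IARS was at 0.361 of IARS2 in MOLM13 and 0.349 in K562, and IARS2 was above IARS in all 16 libraries.

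**Figure D1:**
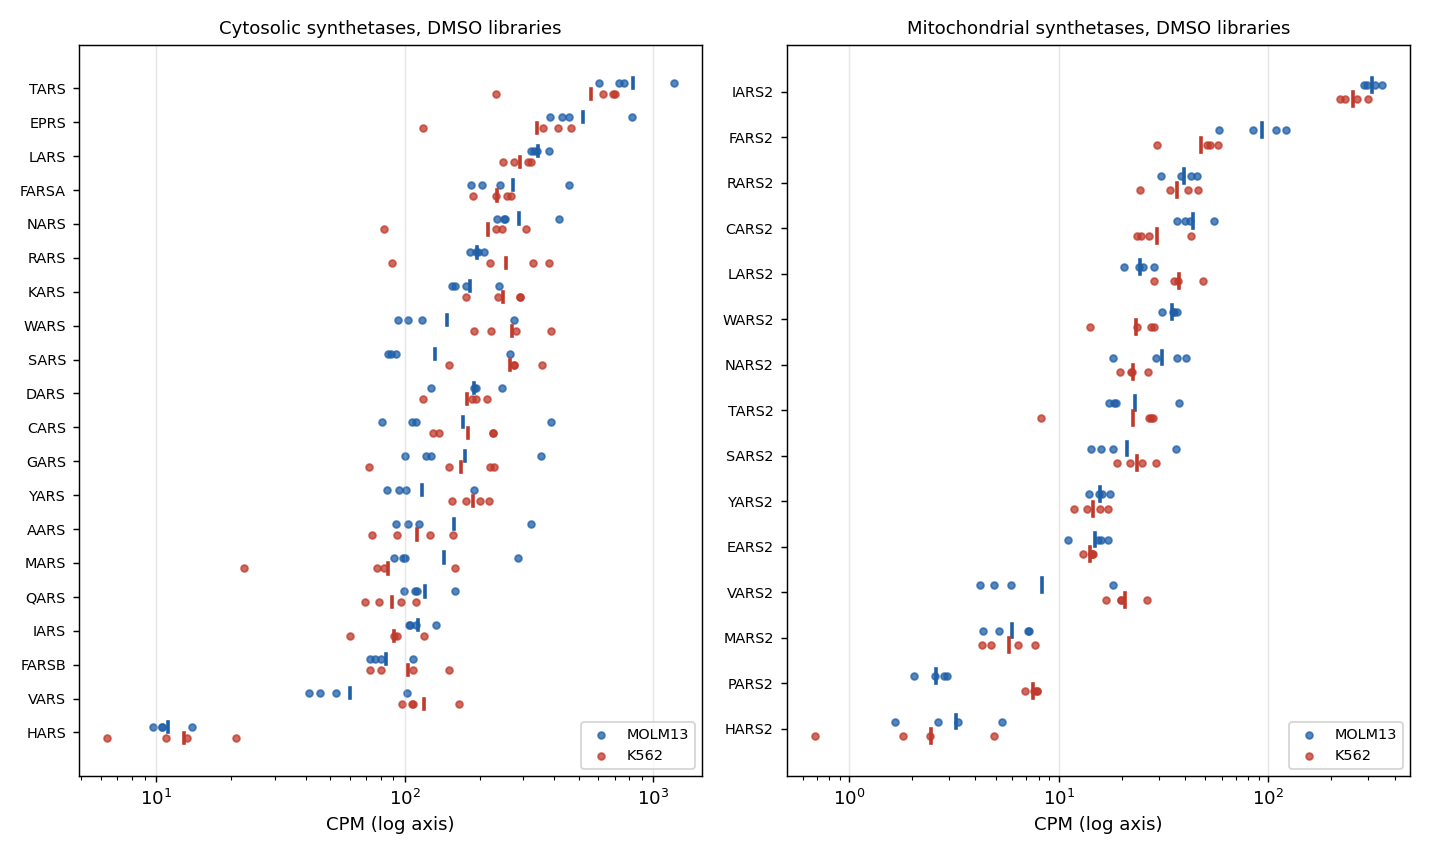
CPM on a log axis of each cytosolic (left) and mitochondrial (right) synthetase gene in the DMSO libraries of MOLM13 (blue) and K562 (red); each point is a library, the vertical tick is the mean of 4, and AARS2, at 0, is not drawn. TARS and EPRS are at the top on the left and HARS, with 12.1 CPM, at the bottom, while IARS2 lies at 284 CPM on the right above all other mitochondrial members.

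In MOLM13 the synthetase genes changed little with Ro. FARSA, the catalytic subunit of cytosolic phenylalanyl-tRNA synthetase, was the member with the clearest change, and it was lower. FARSA had 184, 205, 242 and 458 CPM in DMSO libraries 1 to 4 and 114, 187, 195 and 333 CPM in the matching Ro libraries. It was lower with Ro in all 4 pairs (log2 changes of -0.70, -0.11, -0.28 and -0.46), although the ranges of the 2 groups overlapped, with and without pair 4.

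The test without the pair called 0 of 35 members in MOLM13, where 0 of 15031 genes (0%) were called (edgeR quasi-likelihood test, adjusted p under 0.05). At an unadjusted p under 0.05 it passed 0 members, and 1.16% of all genes. DESeq2 and limma-voom without the pair also called 0 members. With the pair as a block, 141 genes were called higher (0.938%) and 176 lower (1.17%), and of the members 0 were higher and FARSA alone was lower (log2 change -0.37, SE 0.081, adjusted p = 0.0175). DESeq2 with the block gave FARSA -0.39 (adjusted p = 0.00457). The split of higher and lower calls moved with the scaling, to 189 and 76 with library totals and 162 and 114 with upper-quartile scaling, while FARSA stayed between -0.39 and -0.32 with the block under the 4 scalings. Without pair 1 its adjusted p was 0.149 and without pair 3 it was 0.0988, at log2 changes of -0.28 and -0.41.

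The partner subunit FARSB had a log2 change of -0.20 (SE 0.074) with the block, and was lower in all 4 pairs, but did not pass (adjusted p = 0.166). FARS2, the mitochondrial phenylalanine enzyme, had -0.046 (SE 0.0797). Neither gene passed the test.

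The other members with the smallest p in the blocked fit were TARS2, LARS2 and DARS, and none passed the adjusted threshold. TARS2 (mitochondrial threonine) had 18.3, 17.3, 18.7 and 37.6 CPM with DMSO and 17.3, 14.8, 14.6 and 26 CPM with Ro, lower in all 4 pairs (log2 change -0.31, SE 0.0954, adjusted p = 0.099). LARS2 (mitochondrial leucine) had 24.2, 28.3, 25.2 and 20.4 CPM with DMSO and 28.9, 35.5, 28.6 and 23 CPM with Ro, and was the 1 member higher in all 4 pairs (0.25, SE 0.0827, adjusted p = 0.115). DARS (aspartate) had 127, 190.1, 193 and 247 CPM with DMSO and 115, 166, 159.9 and 213 CPM with Ro, again lower in all 4 pairs (-0.19, SE 0.0671, adjusted p = 0.146). For TARS2, LARS2 and DARS, too, the DMSO and Ro ranges overlapped.

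At an unadjusted p under 0.05 with the block, 9 of 35 members were lower (6 cytosolic and 3 mitochondrial, 25.7%) against 9.65% of all genes. These were AARS, DARS, FARSA, FARSB, KARS, VARS, IARS2, MARS2 and TARS2. Higher at that p were 2 of 35 (LARS2 and NARS2) against 7.55% of all genes. Lower in all 4 pairs were 9 of 35 members (AARS, DARS, FARSA, FARSB, KARS, QARS, CARS2, MARS2 and TARS2) against 13.9% of genes, and higher in all 4 pairs was 1 against 10.8%.

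As a group the members had medians close to that of all genes, while with TMM scaling more of them were lower than higher. Without the block the cytosolic median was -0.05 (2 higher, 18 lower) and the mitochondrial one -0.054 (4 higher, 11 lower). That of all genes was 0.00043 (7530 higher, 7501 lower). The median log2 change with the block was -0.029 for the 20 cytosolic members (7 higher, 13 lower) and -0.046 for the 15 mitochondrial members (6 higher, 9 lower), against 0.0015 for all genes. Without pair 4 these medians were -0.014 and -0.048, against 0.0071 for all genes. Changes in MOLM13 fell with mean level across genes (Spearman -0.253 over 15031 genes with the block, a description across genes). After that trend was removed the cytosolic median was 0.033 (11 higher, 9 lower) and the mitochondrial one -0.057 (5 higher, 10 lower). With library totals and the block the medians were 0.02 and 0.0027, where the median of all genes was 0.055.

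Within the cytosolic members, the 8 of the multisynthetase complex had a median of -0.084 (1 higher, 7 lower) and the 12 outside it a median of -0.0004 (6 higher, 6 lower). Without pair 4 the medians were -0.082 and 0.037. Removal of the level trend brought the complex members to a median of -0.029, with 4 higher and 4 lower. Without the block and with the trend kept, 0 of the 8 complex members were higher and 8 lower. Of the 12 outside it, 2 were then higher and 10 lower. SEs with the block ranged from 0.0658 to 0.196 over the 35 members.

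In K562 no synthetase gene passed the test. The test without the pair called 0 of 15227 genes (0%) and 0 members, and the block called 0 genes higher and 0 lower (0% each). At an unadjusted p under 0.05, 0 members passed in either fit, against 1.23% of genes without the block and, with it, 0.847% higher and 1.27% lower. DESeq2 and limma-voom called 0 members. The SEs of the members with the block ranged from 0.128 to 0.361, against 0.0658 to 0.196 in MOLM13.

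The members with the smallest p in K562 were WARS, TARS, WARS2 and FARS2. WARS (tryptophan) had 190.4, 223, 279 and 387 CPM with DMSO and a log2 change of -0.25 (SE 0.18, adjusted p = 0.947), lower in 3 pairs and higher in pair 2. TARS had a change of 0.26 (SE 0.197), with 0.99 in pair 4 and -0.047, 0.23 and -0.038 in pairs 1 to 3. WARS2 (mitochondrial tryptophan, 0.23, SE 0.178) and FARS2 (0.21, SE 0.187) were also highest in pair 4, at 0.90 and 0.95. Without pair 4 the changes of TARS, WARS2 and FARS2 were 0.038, 0.038 and -0.0042.

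Pair 4 of K562 gave the largest changes of many members. MARS (methionine) rose by 1.75 on the log2 scale in that pair, EPRS by 1.44, RARS (arginine) by 1.30 and NARS (asparagine) by 1.20. In pairs 1 to 3 none of these 4 genes rose by more than 0.076, and some fell. In pair 2, MARS went from 159.9 CPM with DMSO to 114 CPM with Ro, and RARS from 381 to 302 CPM. The large rises of pair 4 lay in its DMSO library. MARS had 77, 159.9, 82.5 and 22.6 CPM in DMSO libraries 1 to 4, and EPRS had 361, 465, 415 and 118. In DMSO library 4, 10 of 35 members were at least 2-fold below their mean in DMSO libraries 1 to 3 (8 cytosolic, 2 mitochondrial, 28.6%), against 12.9% of genes. In both libraries of pair 4 together, 0 members were this low, against 0.302% of genes. The DMSO library 4 had 4383241 counts, the second lowest of all, and the part of depth in these low values was not tested.

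With pairs 1 and 3 alone, which leave out both shallow DMSO libraries, the block called 418 genes (3.06%) in K562 and 0 of the 35 members. The median log2 change of all 4 pairs with the block was 0.062 for cytosolic and 0.078 for mitochondrial members, against 0.02 for all genes. Without pair 4 it was -0.09 and 0.031. Changes in K562 rose with mean level across genes (Spearman 0.3135 over 15227 genes with the block, a description across genes). After that trend was removed from the fit of all 4 pairs, the cytosolic median was -0.026 (7 higher, 13 lower). The mitochondrial one was 0.073 (11 higher, 4 lower). Higher in all 4 pairs were KARS (lysine) and WARS2, 2 of 35 members against 8.37% of genes, and lower in all 4 was 0 against 3.93%.

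**Figure D2:**
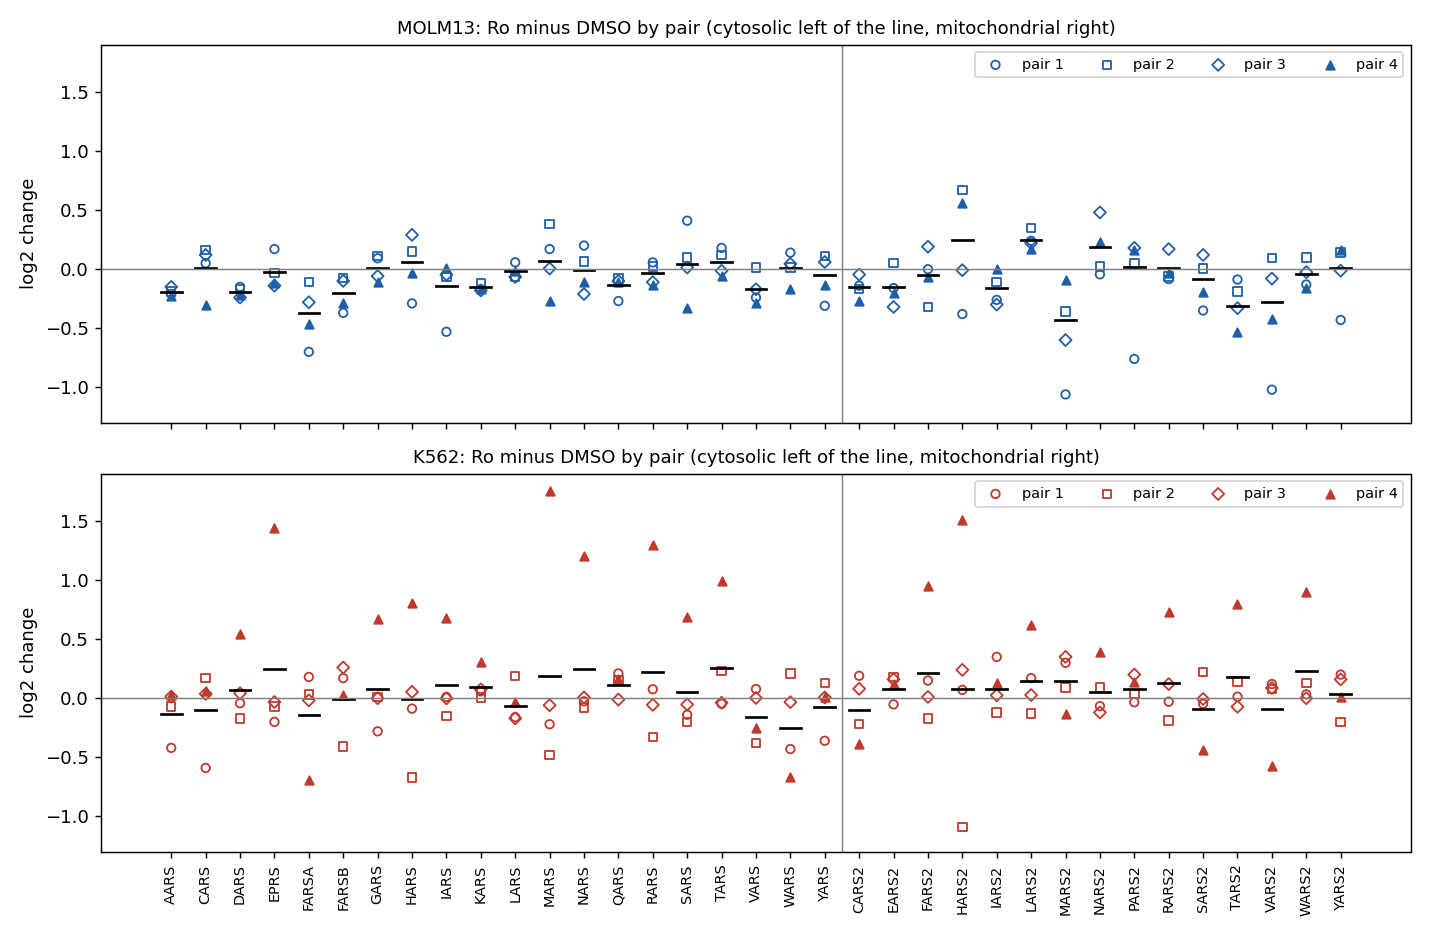
Log2 change with Ro (Ro minus DMSO, TMM-scaled CPM) of each member in pairs 1 to 4 of MOLM13 (top) and K562 (bottom); the black bar is the change fitted with the pair as a block, and filled triangles are pair 4. FARSA lies below 0 in all 4 MOLM13 pairs, and the K562 triangles for MARS (1.75) and EPRS (1.44) stand far above the other pairs.

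The difference between the lines in the response to Ro was tested in 1 fit of all 16 libraries, with the pair within its line as a block. It called 0 of 16224 genes (0%) and 0 of the 35 members, and the fit without the block also called 0. At an unadjusted p under 0.05 with the block, 2 of 35 members passed, MARS2 and TARS2, against 6.01% of genes. DESeq2 with the block called 3 genes and 0 members.

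MARS2, the mitochondrial methionine enzyme, had 4.37, 5.17, 7.14 and 7.23 CPM with DMSO and 2.06, 3.94, 4.56 and 6.79 CPM with Ro in MOLM13, where its log2 change was -0.43 with the block. In K562 it had 6.38, 4.31, 4.72 and 7.72 CPM with DMSO and 7.76, 4.56, 6.04 and 6.88 CPM with Ro, a change of 0.15. The difference between the lines was 0.63 (SE 0.254, adjusted p = 0.766). For TARS2 the difference was 0.47 (SE 0.196, adjusted p = 0.766). Neither held after adjustment over all genes.

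KARS was lower with Ro in all 4 MOLM13 pairs (-0.17, -0.12, -0.18 and -0.17) and higher in all 4 K562 pairs (0.059, 0.0072, 0.075 and 0.31). It was the 1 member of 35 with this opposite pattern, against 1.52% of genes. The tested difference was 0.25 (SE 0.136, adjusted p = 0.766) and did not pass the test. Its K562 change turned to -0.012 once the level trend was removed.

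Between the untreated lines, 4 members were higher in K562 and 1 was lower. Of all 15268 genes tested, 20.3% were higher and 21.1% lower in K562 (edgeR, adjusted p under 0.05), beside 11.4% and 2.86% of the 35 members.

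PARS2, the mitochondrial proline enzyme, had 2.82, 2.03, 2.56 and 2.92 CPM in MOLM13 and 7.83, 6.89, 7.58 and 7.89 CPM in K562. The groups did not overlap and the log2 difference was 1.56 (SE 0.237, adjusted p = 1.3e-04). It stayed past the threshold under every alternative run. FARS2 went the other way, with 109, 121, 84.1 and 58.1 CPM in MOLM13 and 52.8, 57.4, 51.1 and 29.5 CPM in K562 (-0.97, SE 0.275, adjusted p = 0.0117), and these groups did not overlap either. With library totals, which moved the median of all genes by 0.41 and the calls to 5008 higher and 2023 lower, FARS2 was at -0.58 (adjusted p = 0.0833). FARS2 shares 11017 bases with LYRM4 on the other strand, and since the strand setting of the counting is not given, its count is uncertain.

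Both valine enzymes were higher in K562. VARS had 45.8, 41.1, 52.9 and 102 CPM in MOLM13 and 108, 165, 107 and 97.8 CPM in K562 (0.98, SE 0.298, adjusted p = 0.0174). VARS2 had 4.93, 4.2, 5.93 and 18.1 CPM in MOLM13 and 16.7, 19.8, 19.7 and 26.3 CPM in K562 (1.29, SE 0.408, adjusted p = 0.0216). The ranges of both genes overlapped because of MOLM13 library 4 alone. LARS2 had 24.2, 28.3, 25.2 and 20.4 CPM in MOLM13 and 37.2, 48.8, 35.4 and 28.3 CPM in K562 (0.60, SE 0.214, adjusted p = 0.0371), and the groups met at 28.3. VARS lost the call without MOLM13 library 1, 2 or 3 or K562 library 2 (adjusted p up to 0.0633), VARS2 without MOLM13 library 1, 2 or 3 (up to 0.0671), and LARS2 without any single library but K562 library 4 (up to 0.126).

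Both libraries numbered 4 stood apart in this comparison. Without MOLM13 DMSO library 4, 8 members were higher in K562 (22.9%, against 23% of genes) and 2 lower (5.71%, against 21.8%). Without K562 DMSO library 4, 8 were higher (against 20.2%) and 2 lower (against 22.5%). With both left out, 13 of 35 were higher (37.1%, against 26.9% of genes) and 4 lower (11.4%, against 26.2%).

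In that fit of 3 libraries per line, chosen after the values were seen, the higher members were CARS, FARSB, GARS, KARS, RARS, SARS, VARS, WARS, YARS, LARS2, PARS2, TARS2 and VARS2, and the lower ones were the mitochondrial CARS2, FARS2, NARS2 and WARS2. SARS (serine) had 88, 85.3 and 92.4 CPM in MOLM13 libraries 1 to 3 and 276, 356 and 276 CPM in K562 (log2 difference 1.76, adjusted p = 9.0e-07), while its difference over all libraries was 0.99 (adjusted p = 0.0514). The tryptophan enzymes went apart, with WARS at 1.13 (adjusted p = 1.0e-04) and WARS2 at -0.39 (adjusted p = 0.0474). The cysteine enzymes did likewise, with CARS at 0.98 (adjusted p = 0.00128) and CARS2 at -0.69 (adjusted p = 0.00159). CARS2 overlaps ING1 by 900 bases and YARS overlaps S100PBP by 797 bases, so these counts are uncertain too.

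**Figure D3:**
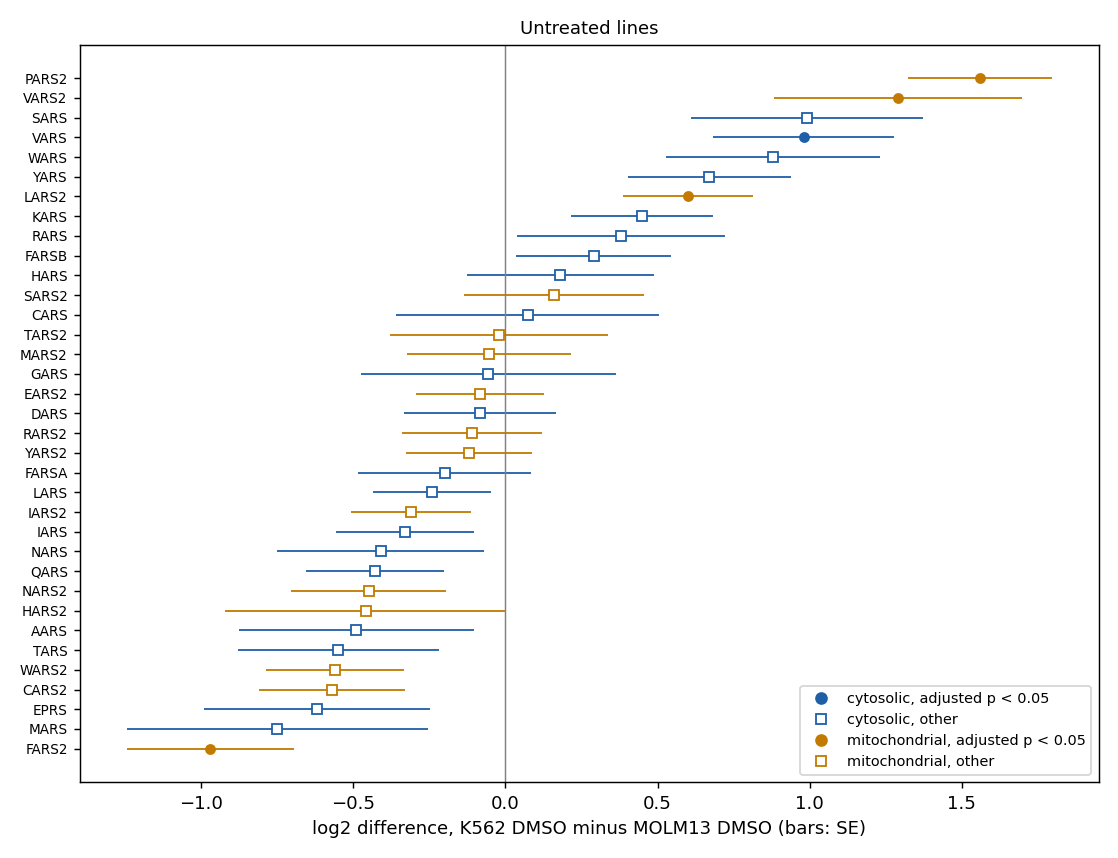
Log2 difference between untreated lines (K562 DMSO minus MOLM13 DMSO, 4 libraries each, bars are SE) for the 35 tested members, cytosolic in blue and mitochondrial in orange, filled where the adjusted p was under 0.05. PARS2 (1.56), VARS2 (1.29), VARS (0.98) and LARS2 (0.60) are filled on the right and FARS2 (-0.97) on the left.

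MOLM13 pair 4 had high levels of many cytosolic synthetase genes with DMSO and with Ro alike. The summed level of the 20 cytosolic members was 3223, 3509, 3711 and 6571 CPM in DMSO libraries 1 to 4 and 3281, 3489, 3417 and 5879 CPM in the Ro libraries. The summed level of the 16 mitochondrial members was 647, 686, 690.0 and 676 CPM with DMSO and 580.4, 633, 633 and 647 CPM with Ro. Library 4 was thus far above the others for the cytosolic sum and within their range with DMSO for the mitochondrial sum.

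**Figure D4:**
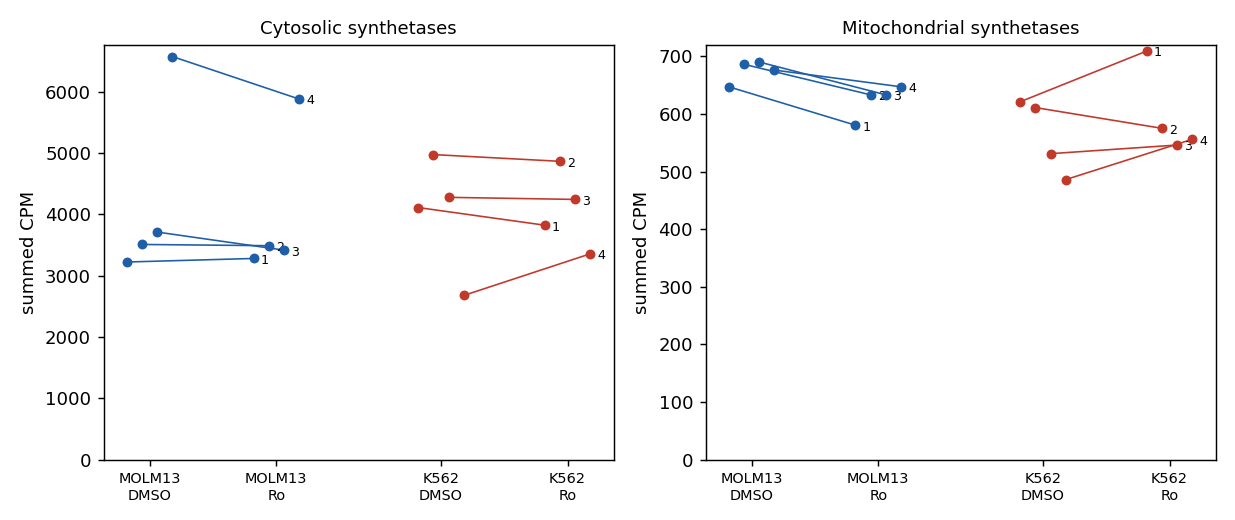
Summed CPM of the 20 cytosolic (left) and 16 mitochondrial (right) members in every library, with a line joining the DMSO and Ro libraries of a pair and the pair number at its right end, MOLM13 in blue and K562 in red. Pair 4 of MOLM13 lies at 6571 and 5879 CPM on the left, above all other libraries, and among the others on the right, while K562 DMSO library 4 is the lowest on the left at 2678 CPM.

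A threshold of at least 2-fold above the mean of pairs 1 to 3 in both treatments was set after the values were seen. It was met by 10 of 35 members (28.6%) against 4.07% of 15031 genes. They were 8 cytosolic members (AARS, CARS, FARSA, GARS, MARS, SARS, VARS and WARS) and 2 mitochondrial ones (SARS2 and VARS2). CARS (cysteine) was 3.91-fold higher in DMSO library 4 and 2.99-fold in Ro library 4, AARS (alanine) 3.14- and 3.06-fold and GARS (glycine) 3.03- and 2.75-fold. FARSA (2.18- and 2.01-fold) and VARS (2.20- and 2.01-fold) were just inside the threshold, and YARS (2.03- and 1.91-fold) and TARS2 (2.08- and 1.67-fold) just outside it. This compares libraries of 1 pair with those of the other 3, so no test was made.

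Other members rose less or were lower. LARS was at 1.15- and 1.17-fold, RARS at 1.09- and 1.01-fold, HARS at 0.929- and 0.9-fold, and the mitochondrial FARS2 and NARS2 were at 0.554- and 0.514-fold with DMSO. Of the complex members 1 of 8 met the threshold (MARS, at 2.97- and 2.18-fold) and of those outside the complex 7 of 12, against 4.07% of genes. The complex members were still above 1 in both treatments (lowest 1.09- and 1.01-fold), with EPRS at 1.93- and 1.8-fold. Their median folds were 1.46 with DMSO and 1.47 with Ro, beside 2.19 and 2.01 outside the complex and 1 and 1.01 for all genes. MARS shares 65 bases with DDIT3 on the other strand and 757 bases with ARHGAP9. In DMSO library 4, DDIT3 had 4.37 CPM and MARS 286 CPM. Over all 16 libraries ARHGAP9 had 5852 counts and MARS 37736. The part of these overlaps in the count of MARS was not tested.

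Genes of the ATF4 list were also high in pair 4. Of 28 such genes tested, 17 met the same threshold, against 4.07% of genes. ATF4 had 213, 331, 401 and 1223 CPM with DMSO, and ASNS (asparagine synthetase) had 98.2, 70.2, 113 and 478. TRIB3, an inhibitor of ATF4 signalling, had 8.03, 14.9, 17.3 and 163 CPM, and CHAC1, which degrades glutathione, had 1.13, 2.87, 2.36 and 41.2. In this order, these genes were at 3.88-, 5.09-, 12.1- and 19.4-fold with DMSO and at 2.86-, 3.84-, 8.38- and 6.7-fold with Ro. Others of the list did not rise in both treatments. SLC7A11 was at 0.757- and 0.483-fold, DDIT3 at 1.65- and 0.497-fold and MTHFD2 at 1.08-fold in each. The list was written with earlier results of these data known. The part of the list genes in the synthetase levels of pair 4 was not tested.

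The threshold was met by cytosolic members with and without the promoter letters printed above. Of the 6 cytosolic members with TGATGCAA in the window, 3 met the threshold (AARS, CARS and MARS), while IARS, NARS and TARS were at 1.26-, 1.69- and 1.74-fold with DMSO. Of the 10 with a window and no match, 4 met it (FARSA, GARS, SARS and WARS). The median folds with and without the letters were 2.35 and 1.71 with DMSO, and 1.89 and 1.68 with Ro.

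**Figure D5:**
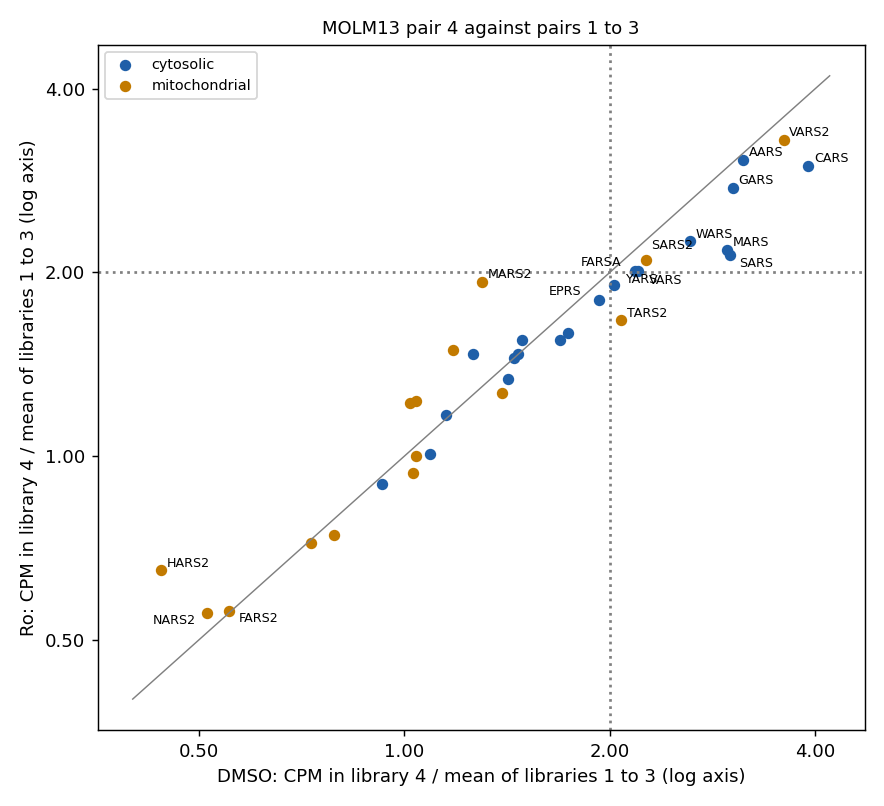
Level in library 4 divided by the mean of libraries 1 to 3 in MOLM13, with DMSO (horizontal) and with Ro (vertical), both on log axes, for the 35 members above 0, cytosolic in blue and mitochondrial in orange; dotted lines mark 2-fold and the diagonal marks equal folds. CARS, AARS, GARS and VARS2 lie at the upper right, near 3-fold or more in both treatments, and FARS2, NARS2 and HARS2 at the lower left.

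Other genes around charged tRNAs had few calls with Ro. With the block, 0 of the 2 tested scaffold genes, 0 of the 6 genes of tRNA delivery (elongation factors such as EEF1A1 and TUFM), 0 of the 11 tested partner enzymes (such as SEPSECS and MTFMT) and 0 of the 7 genes of uncharged-tRNA sensing (such as EIF2AK4 and GCN1) were called in MOLM13, against 0.938% higher and 1.17% lower of all genes. All 6 delivery genes were lower in MOLM13, with a median log2 change of -0.14 and a median of -0.045 after the level trend was removed. In K562, 0 genes of these lists or of the ATF4 list were called with the block, against 0% of all genes in each direction. With pairs 1 and 3 alone, which called 3.06% of genes, PPP1R15B of the sensing list (log2 change 0.33, adjusted p = 0.0462) and CEBPB (0.36) and DDIT4 (0.32) of the ATF4 list were called higher, and ASNS (-0.41) and PHGDH (-0.39) lower.

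With the block, 1 of the 28 tested genes of the ATF4 list was called higher with Ro in MOLM13 and 1 lower. The shares of all genes were 0.938% and 1.17%. By the sign of the change, 14 of the list were higher and 14 lower. Without pair 4, 2 of the list were called higher and 0 lower, so the call of DDIT4 did not hold. Of all 14554 genes in that fit, 155 were called higher and 203 lower. SLC7A11, the cystine transporter subunit, had 5.49, 15.9, 12.1 and 8.46 CPM with DMSO and 21.7, 24.8, 21.7 and 11 CPM with Ro (log2 change 0.85, SE 0.145, adjusted p = 0.00226 with the block), higher in all 4 pairs. In K562 it had a change of 0.86 (SE 0.28, adjusted p = 0.947). DDIT4, an inhibitor of mTORC1, had 81.8, 110.1, 158 and 999 CPM with DMSO and 48, 108, 119.6 and 663 CPM with Ro (-0.42, SE 0.0909, adjusted p = 0.0175), lower in all 4 pairs with overlapping ranges. Without the block neither passed. ATF4 itself had a log2 change of 0.063 (SE 0.0834) in MOLM13 and 0.28 (SE 0.133, adjusted p = 0.947) in K562. The median change of the list in MOLM13 was 0.00094, beside -0.029 for the cytosolic synthetase genes.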

How the data were processed

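Per the labels, RNA of MOLM13 and K562 cells was made into 3′ mRNA libraries with external spike-in RNAs. The submitters' processing notes name Trim Galore, STAR 2.5.3a, SAMtools 1.5 and hg38; the counting program, annotation and strand setting are not given in the sources used here. The authors deposited whole read counts per gene without normalization.

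Ro was compared with DMSO in each line, and the untreated lines with each other, by edgeR 4.0.16 under R 4.3.3 (TMM, quasi-likelihood, at least 10 counts in at least 4 libraries, Benjamini-Hochberg adjustment over all genes, threshold 0.05), without the pair, since the study's methods name no pairing. Same-numbered libraries deviated together from their group means (correlations of 0.385 to 0.831 in MOLM13 and 0.11 to 0.415 in K562), so the fit with the pair as a replicate block, numbered as in the titles, stands beside each result it changes. Across lines the number pairs nothing. For changes by pair, 2 prior counts were added. Alternatives were DESeq2 1.42.0, limma 3.58.1 (voom), other scalings and filters, removal of the level trend (loess, span 0.3) and left-out libraries or pairs. The fits were also run on simulated counts. Their spread was fixed and not taken from these data, so that run does not measure the error of the fits here. P-values measure the spread between these libraries, which may be technical.

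The members and lists were chosen with earlier results of these data known. Named were members past the threshold with the block or, below 4 in a line, the 4 smallest p, called members between lines (up to 4 a direction), and the 3 highest and lowest levels; others were chosen after their values were seen. Sequences are from RefSeq (GRCh38.p14). Spike-ins were not used here, and 1 further gene first listed as an erythroid marker is not reported here.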

Additional observations from a re-analysis of the deposited data

Results flagged for a closer look

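In each group of 4 libraries, a member was listed when the gap between its highest or lowest library and the nearest other exceeded Dixon's 95% critical value. Chance gives this in about 1 group in 20. It was met by 25 values in 140 groups, and 18 of them were MOLM13 library 4.

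In MOLM13 DMSO library 4 these were AARS at 323 CPM, CARS at 389, EPRS at 817, GARS at 352, MARS at 286, NARS at 416, SARS at 266, WARS at 275, YARS at 189.9, TARS2 at 37.6 and VARS2 at 18.1. In MOLM13 Ro library 4 they were AARS at 275 CPM, CARS at 317, EPRS at 752, GARS at 326, VARS at 84, WARS at 244 and, as a low value, HARS at 10.4. All but HARS were above the other 3 libraries of their group.

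The other 7 values were scattered. In K562 DMSO, TARS at 233 CPM and TARS2 at 8.24 were low in library 4, VARS at 165 was high in library 2 and EARS2 at 13 was low in library 3. With Ro, IARS2 at 373 was high in K562 library 1, RARS2 at 37.1 was low in K562 library 3 and YARS2 at 10.4 was low in MOLM13 library 1.

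KARS moved in opposite directions in all pairs of the lines, with a difference of 0.25 in log2 change that did not pass its test (edgeR with the block, adjusted p = 0.766).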

How the results depend on the processing

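Of 652 values recomputed under the alternatives, 570 kept their direction and side of the threshold (or moved by less than the spread) and 4 changed sign. In MOLM13, the genes called with Ro rose from 0 to 317 with the replicate block, 1 with DESeq2, 266 with DESeq2 and the block, and, with the block, 337 under DESeq2 size factors, 276 under upper-quartile scaling and 265 under library totals. They ranged from 0 to 358 without single libraries or pairs, and the 49 without pair 3 was the lowest with the block. The members called were 1 (FARSA) with the block, also under DESeq2 and each of these scalings, and 0 to 1 with libraries or pairs left out. The pairing changed the call of no other member between treatments. The cytosolic median was 0.02 with library totals and the block, where the median of all genes moved alike to 0.055, and 0.033 with the level trend removed and the block. It ranged from -0.32 without Ro library 4 to 0.18 without DMSO library 4, and TARS2 from -0.53 to 0.0071 without the same libraries. In K562, DESeq2 with the block called 2 genes and pairs 1 and 3 alone 418. The mitochondrial median was 0.031 with upper-quartile scaling and 0.02 with library totals (0.021 and 0.014 with the block), scalings that moved the median of all genes alike to between -0.045 and -0.035, and 0.015 to 0.14 with libraries or pairs left out. TARS was -0.059 with pairs 1 and 3 alone and ranged from -0.078 without DMSO library 4 to 0.36 without pair 3, and FARS2 from -0.0042 without pair 4 to 0.33 without pair 2. The difference in response between lines gave 3 genes with DESeq2 and the block. Between untreated lines, members called went from 5 to 9 with DESeq2 (9 with the number as a block) and 10 with limma-voom. They were 8 with upper-quartile scaling, 9 with library totals and 8 with a minimum of 50 counts. They ranged from 2 without MOLM13 library 1, 2 or 3 to 17 without library 4 of both lines. Genes called higher and lower in K562 were 3098 and 3215 of 15268 with edgeR and 3308 and 3456 with DESeq2. They were 2991 and 3127 with DESeq2 and the number as a block, and 3126 and 3271 with limma-voom. Upper-quartile scaling gave 3274 and 3087, library totals 5008 and 2023, and a minimum of 50 counts 2530 and 2733 of 11916. Without library 4 of both lines they were 3878 and 3788 of 14439. The summed mitochondrial level became 587 CPM (MOLM13) and 645 CPM (K562) with library totals, and the median mitochondrial level in MOLM13 ranged from 17.1 to 23.7 CPM with a library left out. The cause of these changes was not tested. At least 1.5-fold in MOLM13 pair 4 were 12 cytosolic and 3 mitochondrial members, against 13.8% of 15031 genes. At least 3-fold were 1 of each, against 0.499% of genes. The block with other scalings or without the trend, these fold thresholds, the levels with a library left out and the removal of both libraries 4 were chosen after seeing the data. Depth limits the lowest members most, since HARS2 had only 4 counts in its lowest library.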
